A study of Mus musculus with 3 samples.

Results

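The cells described here are dividing secretory progenitors with Reg4 and Ccl9, 67 of the 12653 cells that were deposited from the mouse small intestine (0.530%). A cell was a member where Ccl9 and Reg4 together reached at least 10 UMIs per 10000 UMIs of the cell, where 8 mitosis genes (Ube2c, Cdc20, Ccnb1, Birc5, Cenpa, Cdca3, Top2a and Cenpf) together reached at least 20, and where the Defa genes together stayed below 1500. A UMI, or unique molecular identifier, marks 1 captured RNA molecule. The members were thus chosen by measured values, and "dividing" is a name from RNA alone. They were set beside 831 other dividing cells, which passed the same limits for mitosis and Defa genes and lay below the limit for Ccl9 and Reg4, and beside 868 non-dividing Ccl9/Reg4 cells, which lay below the limit for the mitosis genes.

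The libraries were made from male ICR mice, an outbred strain, whose age of 3 weeks is that at the start of treatment. The groups were AOS 0 (vehicle), B + A 0 (busulfan at 40 mg/kg and vehicle) and B + A 10 (busulfan at 40 mg/kg and AOS at 10 mg/kg), with gavage for 2 weeks before the tissue was taken. Busulfan is an alkylating drug used in chemotherapy, and AOS are alginate oligosaccharides. Cells of 6 mice were combined into 1 droplet library per group, so that groups had no replicates, no test was made and all intervals are 95% intervals of counting error only. The source field of the labels names the second and the third library differently from all other fields, and the groups follow the treatment field.

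Secretory cells of the intestine arise in the crypt from dividing progenitors that escape Notch signalling and switch on the transcription factor Atoh1. Such cells send Notch ligands to their neighbours, stop dividing and mature into goblet, Paneth, enteroendocrine or tuft cells. Reg4 is a secreted lectin of secretory cells of the intestine, and Ccl9 is a chemokine. Ube2c and Cdc20 act in the anaphase-promoting complex, which ends mitosis by marking cyclins for degradation.

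The promoters of the genes that chose the cells are shown because they carry different letters. Each window is the 250 bases before the RefSeq start of the gene in GRCm38.p6, read 5′ to 3′ on the strand of the gene. Capitals mark TTTGAA (the core of the cell cycle homology region, an element of many mitosis genes), CCAAT (bound by NF-Y) and CAGCTG (an E-box, a kind of site that proteins such as Atoh1 bind), each on either strand, so that TTCAAA and ATTGG are marked too. Cdk1, the main kinase of mitosis, was not used by the rule.
Reg4, chr3:98221906-98222155, plus strand: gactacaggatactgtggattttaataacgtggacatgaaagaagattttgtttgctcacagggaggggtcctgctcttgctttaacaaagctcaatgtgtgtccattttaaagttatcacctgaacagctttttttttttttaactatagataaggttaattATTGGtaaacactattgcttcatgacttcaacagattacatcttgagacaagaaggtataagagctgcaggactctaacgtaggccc
Ccl9, chr11:83578637-83578886, minus strand: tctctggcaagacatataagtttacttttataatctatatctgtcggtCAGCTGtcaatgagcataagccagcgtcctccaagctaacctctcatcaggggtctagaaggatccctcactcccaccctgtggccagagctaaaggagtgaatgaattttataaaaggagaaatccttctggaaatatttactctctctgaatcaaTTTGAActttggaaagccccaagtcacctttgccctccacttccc
Ube2c, chr2:164769679-164769928, plus strand: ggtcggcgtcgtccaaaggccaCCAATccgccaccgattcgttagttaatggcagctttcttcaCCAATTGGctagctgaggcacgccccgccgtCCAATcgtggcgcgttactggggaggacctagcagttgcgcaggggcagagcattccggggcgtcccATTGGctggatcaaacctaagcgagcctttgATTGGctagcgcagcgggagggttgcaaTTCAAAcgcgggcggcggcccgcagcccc
Cdk1, chr10:69352913-69353162, minus strand: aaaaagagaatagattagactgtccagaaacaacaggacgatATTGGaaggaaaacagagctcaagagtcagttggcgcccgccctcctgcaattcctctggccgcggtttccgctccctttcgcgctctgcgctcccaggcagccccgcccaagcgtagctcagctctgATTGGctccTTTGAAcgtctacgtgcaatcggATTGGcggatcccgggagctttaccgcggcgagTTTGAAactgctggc
Below, these elements are called CHR, CCAAT box and E-box. The window of Ube2c held 1 CHR, at positions -29 to -24 from the start, and 6 CCAAT boxes, 2 of them overlapping. That of Cdk1 held 2 CHR and 3 CCAAT boxes. The window of Reg4 held only 1 CCAAT box, and that of Ccl9 held 1 CHR and 1 E-box. Over all 32851 promoter windows of the same length, 16.0% held a CHR, 33.8% a CCAAT box, 13.0% an E-box and 5.55% both a CHR and a CCAAT box. This pair of elements stood in 3 of the 8 mitosis genes of the rule and in 13 of 31 further genes of G2 and mitosis (41.9%). It stood in 0 of 14 fate factors of secretory cells, of which 8 held a CCAAT box and 4 an E-box. A gene of these lists was counted where any of its windows held the match, while the shares over all are per window, so that the units differ. A match is a run of letters and no measured site.

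The values nearest to the limits were close to them. For Ccl9 and Reg4 the lowest member had 10.1 UMIs per 10000 and the nearest dividing cell outside had 9.71, and for the mitosis genes the values were 20.4 inside and 19.5 outside. For the Defa genes the highest member had 1197, and 2 cells of AOS 0 were left out by this limit alone, at 2637 and 2961. The mitosis genes lay between 20 and 30 in 42 of the 67 members. Another 62 Ccl9/Reg4 cells lay between 10 and 20, so that many members sat near that limit. Reg4 had a UMI in 66 members, Ccl9 in 63 and both in 62, and Reg4 was the higher of the pair in 48.

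Of the 5 genes that name the population, Creb3l1 (ENSMUSG00000027230) and Cbfa2t3 (ENSMUSG00000006362) were not used by the rule. Creb3l1, a transcription factor of the secretory pathway, stood at 1.83, 2.12 and 2.16 UMIs per 10000 in the members (AOS 0 first, then B + A 0, then B + A 10), and at 0.163, 0.118 and 0.207 in the other dividing cells. Cbfa2t3, a corepressor of transcription, stood at 1.04, 0.868 and 0.866 in the members and at 0.0584, 0.0684 and 0.0483 in the other dividing cells. Both genes were thus higher in the members than in the other dividing cells in each of the 3 libraries. Their log2 ratios were 3.60 and 4.04 over the other dividing cells, but 0.37 and 0.48 over the non-dividing Ccl9/Reg4 cells. The population was chosen with earlier results of these data known, so that these markers describe it and do not test its name. In GRCm38, Reg4 (ENSMUSG00000027876) lies at chr3:98222156-98236748 on the plus strand and Ccl9 (ENSMUSG00000019122) at chr11:83572919-83578636 on the minus strand.

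Because a droplet with a dividing cell and a secretory cell could also meet the rule, the UMIs per cell come first. The median member had 10459.5 UMIs in AOS 0, 9344.5 in the busulfan library B + A 0, and 5240 in B + A 10. The other dividing cells had 9601.5, 8363 and 4938.5, and the non-dividing Ccl9/Reg4 cells had 8028.5, 6823 and 3912. The median member was therefore 1.09, 1.12 and 1.06 times as deep as the other dividing cells of its library. The sum of the medians of both other populations was 17630, 15186 and 8850.5 UMIs. This sum was reached by 4 of 67 members (5.97%) and by 67 of 831 other dividing cells (8.06%), and 28 members had no more UMIs than the median other dividing cell. The doublet caller Scrublet placed 1 of 67 members among the highest 5% of scores of its library, against 22 of 831 other dividing cells (2.65%) and 75 of 868 non-dividing cells (8.64%). No member carried a barcode that 2 libraries shared, while 82 barcodes were shared among all cells.

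**Figure D1:**
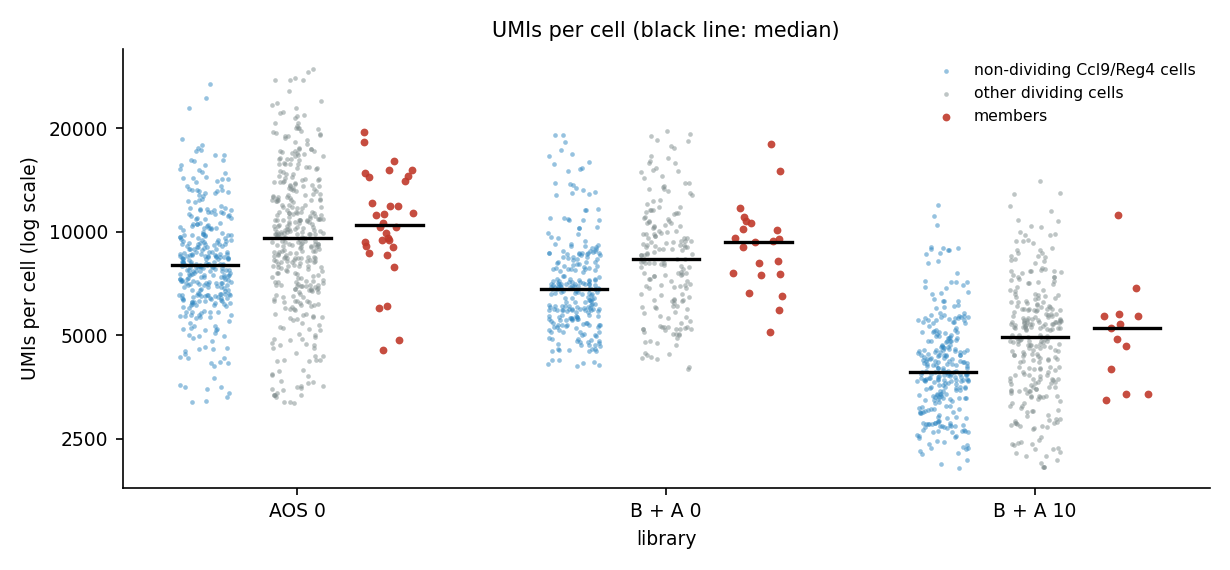
UMIs per cell on a log scale for the members, the other dividing cells and the non-dividing Ccl9/Reg4 cells of each library, 1 point per cell, with a black line at each median. The members' medians (10459.5, 9344.5 and 5240 from left to right) lay just above those of the other dividing cells, and the clouds overlapped in every library.

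Markers of other cell types were summed to see what else a droplet could hold. In the members the 5 goblet markers (Muc2, Fcgbp, Clca1, Zg16 and Tff3) came to 450 UMIs per 10000, with 400, 528 and 476 in the 3 libraries. The 5 Paneth markers came to 50.4 and the 5 enterocyte markers to 11.7, of which none was at 0 over all members. The goblet, Paneth and enterocyte sums were 72.6, 7.92 and 14.7 in the other dividing cells. In the non-dividing cells they were 1235, 56.7 and 23.7. The 5 T lymphocyte markers came to 1.93 in the members, 9.38 in the other dividing cells and 3.53 in the non-dividing ones, so that the other dividing cells also held lymphocyte RNA. The 5 enteroendocrine markers came to 0.411, with 1 of them at 0, and all 5 tuft markers and the erythroid markers were at 0. The tuft markers came to only 0.017 in the other dividing cells and 0.025 in the non-dividing ones, so that their 0 says little. The part of these cell types in the results was not tested.

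Members made up 32 of 4106 cells in AOS 0 (0.779%, exact binomial interval 0.534 to 1.10), 22 of 3195 in B + A 0 (0.689%, 0.432 to 1.04), but 13 of 5352 in B + A 10 (0.243%, 0.129 to 0.415). The share was lowest in B + A 10, and AOS 0 and B + A 0 overlapped. By Newcombe's interval B + A 0 differed from AOS 0 by -0.0908 percentage points (-0.486 to 0.328). B + A 10 lay below B + A 0 by a difference of -0.446 points (-0.812 to -0.156) and below AOS 0 by one of -0.536 (-0.871 to -0.252).

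Members were also few among the dividing cells of B + A 10. Of all dividing cells they were 7.88% (32 of 406) in AOS 0, 10.9% (22 of 201) in B + A 0, but 4.47% (13 of 291) in B + A 10. B + A 10 minus B + A 0 came to -6.48 points (-11.9 to -1.77), while B + A 10 minus AOS 0 came to -3.41 (-6.96 to 0.352), an interval that holds 0. Of all Ccl9/Reg4 cells the members were 8.84%, 7.91% and 4.41%, and B + A 10 minus B + A 0 was -3.51 points (-7.70 to 0.472), while B + A 10 minus AOS 0 was -4.43 (-8.26 to -0.533). Dividing cells were 9.89%, 6.29% and 5.44% of all cells, with B + A 10 minus B + A 0 at -0.854 points (-1.92 to 0.163) and B + A 10 minus AOS 0 at -4.45 (-5.56 to -3.37). Ccl9/Reg4 cells were 8.82%, 8.70% and 5.51% of all cells, and here B + A 10 lay below both, by -3.19 points (-4.37 to -2.06) and -3.30 points (-4.38 to -2.25). Among Ccl9/Reg4 cells of all libraries 7.17% were dividing, and among cells below that limit 7.40%.

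Depth differed between the libraries with the shares, since the median cell had 7371, 6407 and 3505 UMIs, and 1 UMI was worth 0.956, 1.07 and 1.91 per 10000 in a member of median depth. After each cell had been thinned to 2000 UMIs, which left out no cell, the rule found 33, 34 and 23 members, or 0.804%, 1.06% and 0.430% of cells. Of these 90 cells, 57 were members at full depth. At equal depth B + A 10 minus B + A 0 was -0.634 points (-1.08 to -0.264), and B + A 10 minus AOS 0 was -0.374 (-0.727 to -0.0590). B + A 10 thus kept the lowest share, while the order of AOS 0 and B + A 0 turned, with a difference of 0.260 points whose interval (-0.181 to 0.739) holds 0. With 1 library per group, treatment and depth cannot be told apart.

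**Figure D2:**
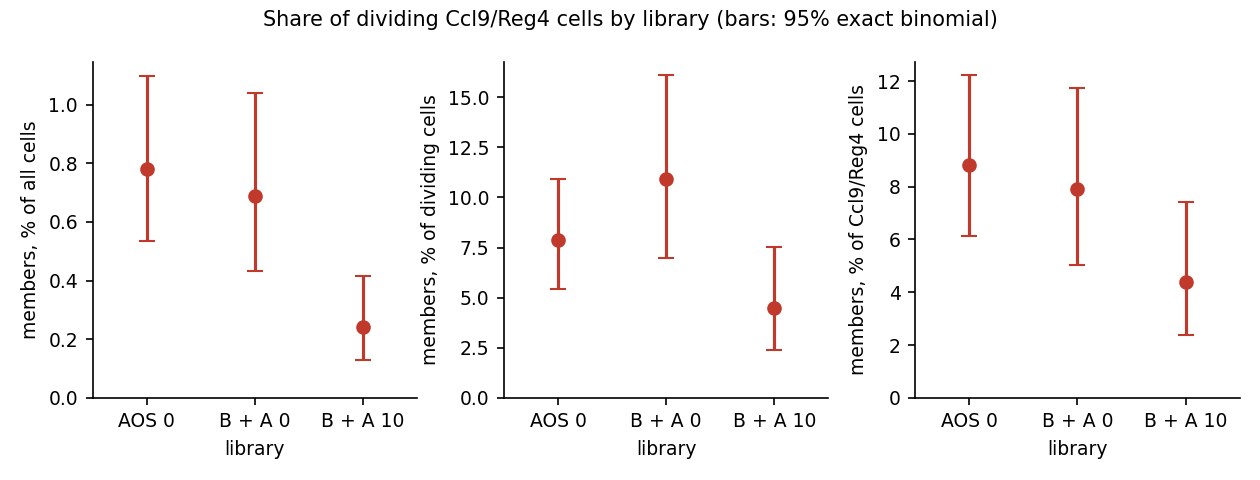
Members as a percent of all cells, of dividing cells and of Ccl9/Reg4 cells in each library, as points with 95% exact binomial bars of counting error only. B + A 10 has the lowest point in all 3 panels (0.243%, 4.47% and 4.41%), and B + A 0 has the highest point among dividing cells (10.9%).

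Levels in the members were then set beside both other populations, as UMIs summed over cells and divided by all their UMIs. Since the rule fixed these groups by their genes, these are descriptions with no test. A gene was counted past the fold at a ratio of at least 1.5 either way, among genes with at least 100 UMIs over both sides added together. Beside the other dividing cells, 34.2% of 6656 genes were past the fold (9.34% higher and 24.9% lower in the members), and beside the non-dividing Ccl9/Reg4 cells 30.7% of 5318 (23.2% higher and 7.43% lower). The median gene itself stood at a log2 ratio of -0.23 and 0.25 in these comparisons. Measured from it, 1007 genes were higher and 1019 lower in the first comparison, and 602 higher and 697 lower in the second, so that neither direction was in surplus on that scale. A log2 ratio below is on the scale of the totals unless it is said to be relative to the median gene.

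Fate factors of secretory cells stood in the members at about the level of the non-dividing Ccl9/Reg4 cells. Of 10 with enough UMIs, 8 were higher and 1 was lower than in the other dividing cells (median log2 ratio 2.69), and beside the non-dividing cells 1 was higher and none lower (0.27). Atoh1 (ENSMUSG00000073043), the factor that starts the secretory fate, stood at 2.81, 1.74 and 2.31 UMIs per 10000 in the 3 libraries of members, at 0.142, 0.18 and 0.152 in the other dividing cells, and at 1.96, 1.998 and 1.93 in the non-dividing ones. Its log2 ratio was 3.97 (3.61 to 4.34) over the other dividing cells and 0.29 (0.04 to 0.54) over the non-dividing ones. Spdef, which acts after Atoh1 in goblet and Paneth cells, had log2 ratios of 4.01 and 0.08, and Creb3l1 3.60 (3.22 to 3.98) and 0.37 (0.09 to 0.65). Cbfa2t3 had log2 ratios of 4.04 (3.45 to 4.65) and 0.48 (0.07 to 0.87). Klf4, a factor of goblet cell maturation, and Foxa3, a forkhead factor, stood 2.93 and 2.45 above the other dividing cells and -0.06 and -0.09 from the non-dividing ones on the log2 scale.

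Some fate factors were highest in the members. Sox9, a factor of crypt progenitors and Paneth cells, stood at 1.10, 1.35 and 1.44 UMIs per 10000 in the members of the 3 libraries, above both other populations in each library (0.833, 0.92 and 0.738 in the other dividing cells and 0.71, 0.771 and 0.835 in the non-dividing ones). Its log2 ratios were 0.55 (0.19 to 0.89) and 0.69 (0.32 to 1.04). The second was 0.30 with the populations chosen anew at 2000 UMIs per cell, which changes the cells. Gfi1, a repressor that guards goblet and Paneth fate against the endocrine one, had 19 UMIs in the members and log2 ratios of 4.55 and 1.26 (0.45 to 2.0). Sox4, a transcription factor of progenitor cells, went the other way, at 0.169, 0.193 and 0.144 in the members and 0.635, 0.802 and 0.441 in the other dividing cells (log2 ratio -1.86). Of the 9 fate factors counted in both comparisons, 5 lay above both populations by their intervals, but relative to the median gene only Sox9 did. Neurog3 and Insm1, which start the enteroendocrine fate, had no UMI in the members. Relative to the median gene, the upper ends of their log2 intervals were 2.09 and 2.37 over the other dividing cells. Over the non-dividing cells they were 5.41 and 3.12, so that these zeros do not place the members below either population.

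Of 9 Notch genes, 2 (Dll1 and Hes6) were higher and 6 lower than in the other dividing cells. Dll1, a ligand that secretory cells show to their neighbours, stood at 1.12, 0.723 and 0.721 UMIs per 10000 in the members and at 0.173, 0.118 and 0.0965 in the other dividing cells (log2 ratio 2.72), and was near its level in the non-dividing cells (0.49, 0.07 to 0.88). Hes6, which acts against Hes1, stood at 1.80, 1.54 and 1.59 in the members, above both the other dividing cells (0.81, 0.902 and 0.676) and the non-dividing ones (1.12, 1.08 and 0.943). Its log2 ratios were 1.07 (0.76 to 1.38) and 0.66 (0.35 to 0.96), and it stayed above both relative to the median gene. Hes1, a target that active Notch switches on, was lower than in the other dividing cells (log2 ratio -1.16). With the populations chosen anew at 2000 UMIs per cell, which changes the cells, it was within the fold (-0.49). Numb, which acts against Notch, was among the 6 lower genes, at a log2 ratio of -0.70, or -0.47 relative to the median gene, with an interval (-1.95 to 0.70) that holds 0.

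**Figure D3:**
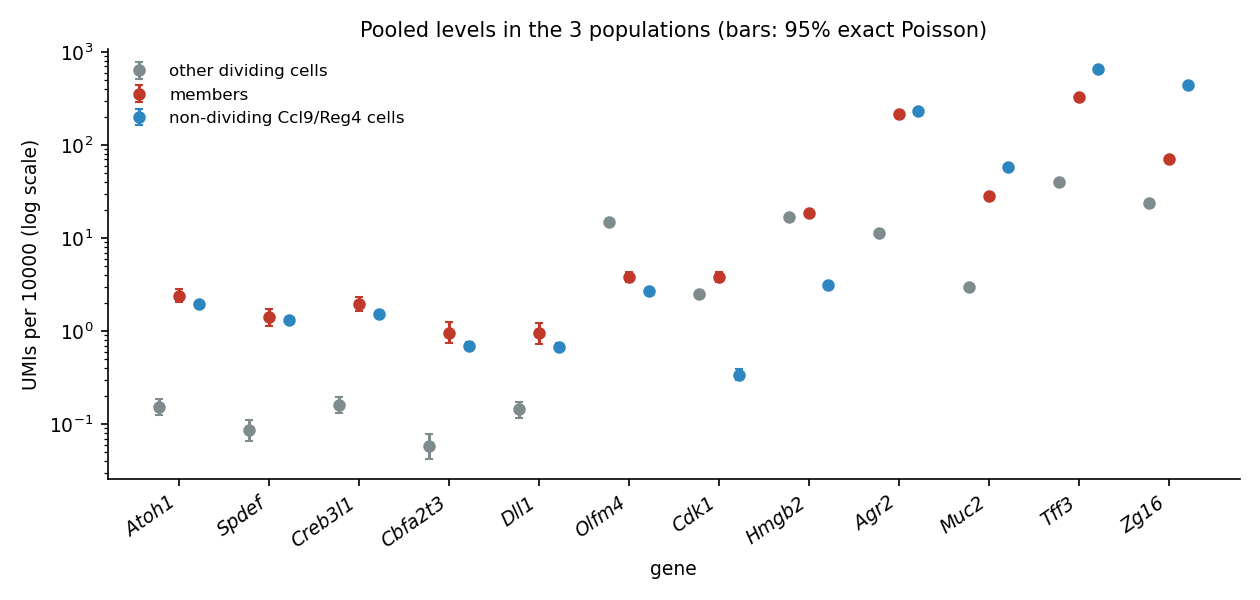
Pooled UMIs per 10000 on a log scale of 12 genes in the other dividing cells, the members and the non-dividing Ccl9/Reg4 cells of all libraries, with 95% exact Poisson bars. Atoh1, Spdef, Creb3l1, Cbfa2t3, Dll1 and Agr2 of the members lie near the non-dividing cells, Cdk1 and Hmgb2 near the other dividing cells, and Muc2, Tff3 and Zg16 between both.

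Stem cell genes of the crypt were mostly low. Of 10 counted, 6 were lower and 1 was higher than in the other dividing cells (median log2 ratio -1.45), and of 8 counted beside the non-dividing cells 4 were higher and none lower (0.58). Olfm4, a secreted protein of crypt base stem cells, stood at 5.09, 1.40 and 4.91 UMIs per 10000 in the members and at 14.7, 16.5 and 13.8 in the other dividing cells. In the members of B + A 10 a single cell held 79.4% of its UMIs, and without that cell the level was 1.12. Lgr5, the receptor that marks these stem cells, had a UMI in 0 of 67 members at 2000 UMIs per cell, against 3.37% of the other dividing cells. With 3 counts taken as the limit of a count of 0, up to 4.48% of members could have a UMI. This is not a Clopper-Pearson limit, and it sets no limit on cells that express the gene. Without thinning Lgr5 had a UMI in 3 of 67 members and in 9.51% of the other dividing cells. Slc12a2, an ion transporter of the crypt, stood at 3.796, 2.12 and 4.91 and thus near the other dividing cells (log2 ratio -0.10). Prom1, a membrane protein of crypt cells, was the exception above them, at a log2 ratio of 1.75.

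Genes of G2 and mitosis that the rule did not use went with those it did. Of 41 such genes 2 were higher and none lower than in the other dividing cells (median log2 ratio 0.15), and all 30 counted beside the non-dividing cells were higher (2.60). Cdk1 stood at 4.05, 3.90 and 2.45 UMIs per 10000 in the members, at 2.63, 2.57 and 2.19 in the other dividing cells, and at 0.325, 0.393 and 0.298 in the non-dividing ones. Its log2 ratio over the other dividing cells was 0.60 (0.40 to 0.79), and it was higher in each library. With the populations chosen anew at 2000 UMIs per cell, which changes the cells, the ratio was 0.22. Hmgb2, a chromatin protein of dividing cells, stood at 20.8, 16.4 and 14 against 17.3, 16.0 and 15.9 in the other dividing cells. It was thus higher in AOS 0 and lower in B + A 10. Aurka, a kinase of the spindle poles, had the largest ratio over the non-dividing cells (log2 3.85).

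S phase genes did not follow those of mitosis. Of 19 counted, none was higher and 9 were lower than in the other dividing cells (median log2 ratio -0.58). Relative to the median gene (-0.23), only 3 of the 16 counted in both comparisons lay below the other dividing cells by their intervals. Beside the non-dividing cells 8 of 17 were higher and 1 was lower (0.41). Pcna, the sliding clamp of DNA replication, stood at 1.10, 0.434 and 0.289 UMIs per 10000 in the 3 libraries of members, with log2 ratios of -0.62 over the other dividing cells and -0.06 over the non-dividing ones. Tyms, which makes the thymidylate for new DNA, stood at the level of the other dividing cells (0.06) and above the non-dividing ones (1.73). Per cell, the summed S phase genes had a median of 6.75 in the members, 10.2 in the other dividing cells and 2.11 in the non-dividing ones.

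Goblet cell genes were higher than in the other dividing cells, and most were lower than in the non-dividing ones, by unequal amounts. All 15 counted were higher than in the other dividing cells (median log2 ratio 3.49), while 13 of 20 were lower and none higher than in the non-dividing cells (-0.86). Agr2, a disulfide isomerase that mucin folding needs, stood at 212, 237 and 160 UMIs per 10000 in the members and at 242, 253 and 183 in the non-dividing cells (log2 ratio -0.12), against 10.7, 11.8 and 12.9 in the other dividing cells. Muc2, the gel-forming mucin, stood at 25.4, 35.7 and 21.6 in the members, 2.74, 3.33 and 3.25 in the other dividing cells and 63.5, 53.6 and 50.7 in the non-dividing ones (log2 ratios 3.25 and -1.02). Agr2 was thus near the level of the non-dividing cells in each library, and Muc2 was below it in each.

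Tff3, a peptide that goblet cells secrete with mucin, stood at 283, 396 and 339 UMIs per 10000 in the members, against 642, 636 and 729 in the non-dividing cells (log2 ratio -1.01). Zg16, a lectin of the mucus, was further behind, at 70.7, 65.1 and 89.3 against 500.2, 373 and 422 (-2.65), and was 22.1, 26.8 and 24.4 in the other dividing cells. Clca1, a protease of the mucus, stood at 2.19, 3.76 and 3.75 against 17.1, 11.4 and 12.8 (-2.33), and Fcgbp, which binds to mucin, had a log2 ratio of -1.49. Ido1, which breaks down tryptophan, had no UMI in the members and 0.5004 per 10000 in the non-dividing cells. The upper end of the log2 interval of Ido1 was -3.09.

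On a scale where a gene at the level of the other dividing cells has the position 0 and one at that of the non-dividing cells the position 1, Zg16 was at 0.113, Clca1 at 0.125, Fcgbp at 0.301, Muc2 and Tff3 at 0.464 and Agr2 at 0.913. The median position was 0.523 for goblet genes, 0.924 for mucin glycosylation enzymes, 0.967 for protein folding and export genes and 1.01 for fate factors, but -0.137 for mitosis genes outside the rule and 0.268 for S phase genes. The ends of this scale are populations that the rule cut on the mitosis genes and on Ccl9 and Reg4, so the positions are a description.

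Enzymes that build mucin sugars and proteins that fold and export cargo stood near the level of the non-dividing cells. Of 14 glycosylation enzymes, 13 were higher and none lower than in the other dividing cells (median log2 ratio 1.67), and of 18 beside the non-dividing cells 2 were higher and 1 lower (0.02). Gcnt3, which branches mucin sugars, stood at 2.62, 3.47 and 3.46 UMIs per 10000 in the members (log2 ratios 3.93 and 0.10). Of 25 folding and export genes, 20 were higher and none lower than in the other dividing cells (0.91), and none of 26 was past the fold beside the non-dividing cells (0.12). Beside the non-dividing cells the medians of both lists thus lay below that of all genes (0.25), and that of the fate factors (0.27) at it. Hsp90b1, a chaperone of the endoplasmic reticulum, stood at 10.8, 11.0 and 7.21 in the members. Its log2 ratios were 0.78 and 0.41 (0.29 to 0.53), and it alone of the 25 lay above both populations relative to the median gene.

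**Figure D4:**
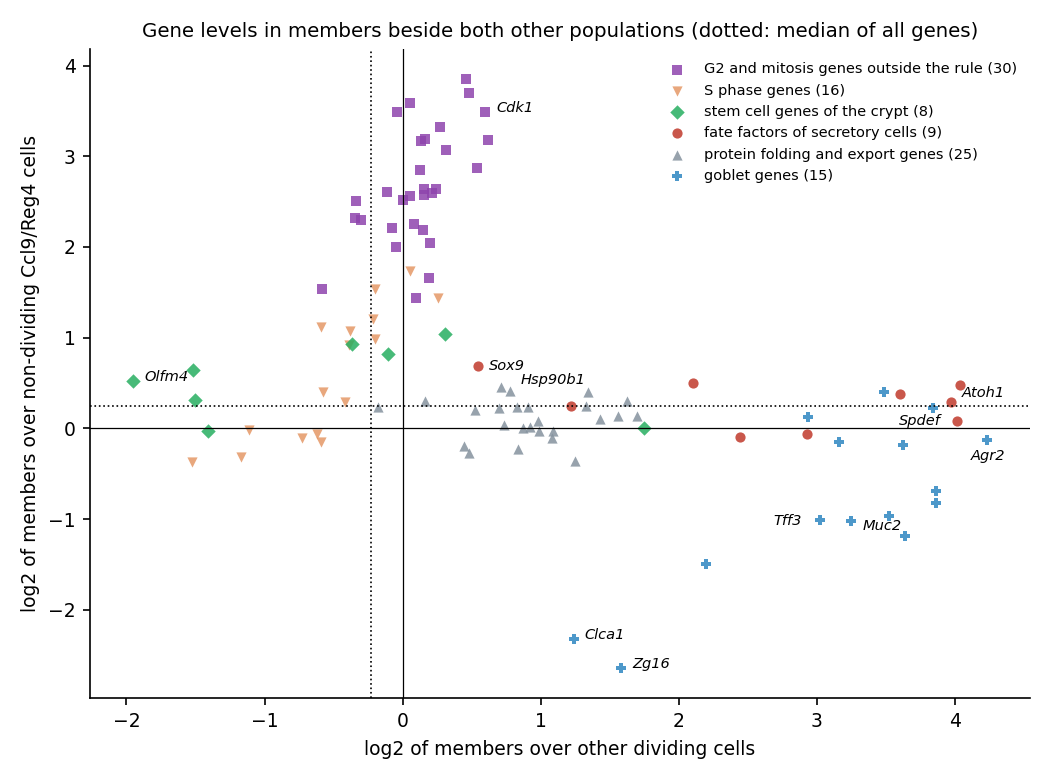
Log2 ratio of the members over the other dividing cells (horizontal axis) and over the non-dividing Ccl9/Reg4 cells (vertical axis), 1 point per gene counted in both comparisons, with dotted lines at the median of all genes (-0.23 and 0.25). Mitosis genes outside the rule lie above and near 0 on the horizontal axis, goblet genes lie to the right and mostly below 0, and fate factors and folding genes lie to the right near 0 on the vertical axis.

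Among genes of Paneth cells, Mmp7, the protease that activates defensins, stood at 7.06, 6.46 and 5.19 UMIs per 10000 in the members, 0.272, 0.423 and 0.145 in the other dividing cells and 7.79, 7.39 and 5.57 in the non-dividing ones (log2 ratios 4.57 and -0.12). Lyz1, the lysozyme of Paneth cells, stood at 19.8, 7.57 and 20.9 in the members, but 1 cell held 29.7%, 20.4% and 46.2% of these UMIs. Of 10 Paneth genes 6 were higher and none lower than in the other dividing cells (median log2 ratio 0.78), and of 12 beside the non-dividing cells 5 were lower and none higher (-0.52). Ccl6, a chemokine encoded near Ccl9, stood at 22.4, 20.7 and 25.8, with log2 ratios of 3.66 and -0.79. Reg3b and Reg3g, antimicrobial lectins, had levels below those of either population, with log2 ratios of -0.58 and -0.71 for Reg3b and -0.43 and -0.56 for Reg3g. Of these ratios only the -0.71 of Reg3b was past the fold.

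Genes of other cell types were low. Of 21 enterocyte genes 10 were lower and none higher than in the other dividing cells (median log2 ratio -0.55), and of 22 beside the non-dividing cells 14 were lower and none higher (-0.93). All 12 T lymphocyte genes were lower than in the other dividing cells (-2.46) and all 6 that were counted were lower than in the non-dividing ones (-1.29). Of 6 enteroendocrine genes 3 were lower and 1 was higher than in the other dividing cells (-0.97). Of 11 p53 target genes 2 were higher and 3 lower (0.15), and of 3 genes for repair of DNA crosslinks 1 was lower (-0.36). Among the genes with the largest ratio over the other dividing cells that no list held were Hpd, an enzyme of tyrosine breakdown (log2 4.61), and Rap1gap, which switches off Rap proteins (4.01). Apol10a and Aadac had 2 UMIs each in the members and were among the lowest, at -4.78 and -4.49.

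The members were not alike in their goblet genes. Per cell, Agr2 ran from 5.81 to 394 UMIs per 10000 with a median of 229, against medians of 232 in the non-dividing cells and 1.69 in the other dividing cells. Zg16 ran from 1.65 to 443 with a median of 23.1, against 256 and 11.1. The 5 goblet markers together ran from 62.1 to 1493 with a median of 449, against 1005 and 29.5. Most members thus had Agr2 of a non-dividing Ccl9/Reg4 cell and little Zg16, and a few had much of both.

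Agr2 of at least 116 UMIs per 10000, which is 50% of the median of the non-dividing cells, was found in 53 of 67 members. By library these were 24 of 32, 21 of 22 and 8 of 13. The same level was reached by 700 of 868 non-dividing cells and by 25 of 831 other dividing cells (3.01%). The mitosis genes outside the rule had a median of 122 per 10000 in the members (68.5 to 198), 116 in the other dividing cells and 14.01 in the non-dividing ones. Both Agr2 of at least 116 and these mitosis genes at or above the level of the lowest member were found in 53 members, in 22 of 831 other dividing cells and in 51 of 868 non-dividing cells (5.88%). All members meet this mitosis limit by its definition, and 811 of 831 other dividing cells met it. Cells that met both limits thus also lay outside the rule, and whether they were single cells was not tested.

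**Figure D5:**
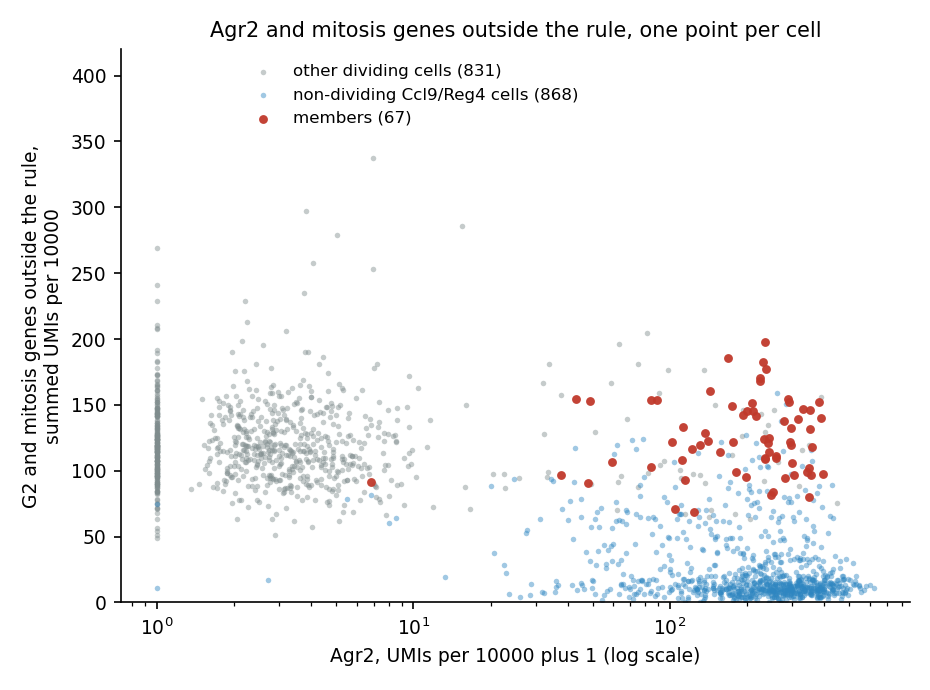
Agr2 (UMIs per 10000 plus 1, log scale) against the summed G2 and mitosis genes outside the rule (UMIs per 10000), 1 point per cell of the 3 populations. Most members lie to the right, where Agr2 of the non-dividing cells lies (median 232), and high, where the mitosis genes of the other dividing cells lie (median 116).

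Over the 67 members the rank correlation (Spearman) of the goblet markers was -0.042 with the 8 mitosis genes, -0.41 with the S phase genes and -0.40 with Olfm4, and that of Reg4 with Ccl9 was -0.082. The cells share 3 libraries of different depth, and these values describe them only. To compare shares of cells at equal depth, each cell was thinned to 2000 UMIs, with the populations kept as chosen at full depth. Atoh1 then had a UMI in 32.8% of members, 2.65% of other dividing cells and 31.9% of non-dividing ones, and Creb3l1 in 32.8%, 2.29% and 25.9%. Gfi1 had one in 8.96%, 0.36% and 2.65%, Cdk1 in 53.7%, 39.0% and 5.07%, and Olfm4 in 25.4%, 55.4% and 15.8%. Without thinning the shares were 80.6%, 7.10% and 66.1% for Atoh1, 79.1%, 9.03% and 59.1% for Creb3l1 and 25.4%, 0.963% and 8.06% for Gfi1. Those of Cdk1 were 85.1%, 76.4% and 14.2%, and those of Olfm4 46.3%, 69.6% and 32.5%. The shares in the other dividing cells include the 22 cells that met both limits above, on Agr2 and on the mitosis genes outside the rule. What else made up these shares was not tested.

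Within the members of the libraries 355616, 207451 and 69310 UMIs could be compared. B + A 0 was past the fold from AOS 0 in 61 of 831 genes (7.34%), with 25 higher (3.01%) and 36 lower (4.33%). B + A 10 was past the fold from B + A 0 in 42 of 401 genes (10.5%, of which 4.24% of genes higher and 6.23% lower) and from AOS 0 in 119 of 638 (18.7%, 6.27% higher and 12.4% lower). Scaled by median-of-ratios size factors, the last comparison split into 62 genes higher and 55 lower in place of 40 and 79. With totals that leave out ribosomal protein and Defa genes, B + A 10 beside B + A 0 split into 21 higher and 16 lower in place of 17 and 25. The same comparisons gave 4.81%, 2.57% and 9.31% in the other dividing cells and 4.25%, 3.71% and 9.25% in the non-dividing ones, on more UMIs.

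Olfm4 had the lowest ratio of B + A 0 to AOS 0 within the members. Its log2 ratio was -1.86 (-2.48 to -1.29) there, 0.17 in the other dividing cells and 0.51 in the non-dividing ones, and it had a UMI in 15 of 32 members of AOS 0 and 11 of 22 of B + A 0. In B + A 0 a single member held 44.8% of the UMIs. Aldh1b1, an aldehyde dehydrogenase of crypt cells, stood at 4.19, 1.49 and 3.17 UMIs per 10000 in the members, lowest in B + A 0 (log2 ratio -1.49, and -0.54 and -0.43 in the other populations). It had a UMI in 31 of 32, 13 of 22 and 6 of 13 members.

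Ifitm3, a membrane protein induced by interferon, stood at 16.7, 6.75 and 15.0 in the members. It was lower in B + A 0 than in AOS 0 by a log2 ratio of -1.31 (-1.58 to -1.04), and B + A 10 stood above B + A 0 by 1.15 (0.77 to 1.53). In the 90 cells that the rule found at 2000 UMIs per cell these ratios were -0.32 (-0.80 to 0.15) and 0.22 (-0.32 to 0.75), so that neither was past the fold. In the other dividing cells its level was 22.4, 22.7 and 22.2, with no difference of this size. The single highest members held 13.5%, 20% and 31.7% of its UMIs, and without them the levels were 15.0, 5.91 and 12.2. Ccnb2, a cyclin of mitosis, stood at 2.45, 1.11 and 2.02 (log2 ratio -1.14, -1.87 to -0.47, for B + A 0), and at 1.72, 1.57 and 1.58 in the other dividing cells. Cd81, a tetraspanin, followed the same order at 3.18, 1.35 and 2.31.

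The interferon gene Ifi27l2b and the histone gene Hist1h2ao differed between libraries in the same direction in all 3 populations. Hist1h2ao stood at 0.759, 3.66 and 2.16 UMIs per 10000 in the members, with a log2 ratio of B + A 0 to AOS 0 of 2.27, beside 3.11 in the other dividing cells and 3.39 in the non-dividing ones. Ifi27l2b stood at 6.81, 3.33 and 8.22, with log2 ratios of -1.03 for B + A 0 over AOS 0 and 1.31 for B + A 10 over B + A 0, beside -1.04 and 2.15 in the other dividing cells and -1.24 and 2.07 in the non-dividing ones. Actb, the cytoskeletal actin, was highest in B + A 10 at 23.8, 40.7 and 55.0, and its log2 ratio of B + A 10 to AOS 0 was 1.21 in the members, 0.98 in the other dividing cells and 0.78 in the non-dividing ones. Rps28, a protein of the ribosome, stood at 17.3, 21.5 and 35.2, with a log2 ratio of 1.03 that was 1.03 and 1.02 in the other populations. The ratios of these 4 genes thus had the same sign in all 3 populations. Hist1h2ao and Rps28 have near-identical copies in the genome, among which reads may be split.

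In some genes of Paneth cells and defensins a large part of the UMIs lay in single cells. Mptx1, a pentraxin, stood at 3.23, 13.6 and 5.19 UMIs per 10000 in the members, and 1 cell held 44.9% of its UMIs in B + A 0 and 88.9% in B + A 10. Defa30 and Defa17 had log2 ratios of B + A 10 to AOS 0 of 2.78 and 1.71, and 1 cell of B + A 10 held 54.1% and 65.2% of their UMIs. Without it Defa30 stood at 10.5 and Defa17 at 15.1 in B + A 10, against 3.07 and 12.1 in all members of AOS 0. In the 90 cells that the rule found at 2000 UMIs per cell the ratio of Defa30 was 1.48 (0.89 to 2.09). That of Defa17 was 0.18 there, so that Defa30 alone of the pair was past the fold. Defa genes also differ little in sequence, so that reads may be split among them.

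The lowest ratios of B + A 10 to AOS 0 were those of genes with few UMIs. Mt2, a metallothionein that binds zinc, stood at 4.11, 3.18 and 0.577, with 4 UMIs in the members of B + A 10 and a log2 ratio of -2.83 (-4.73 to -1.44), beside -0.62 in the other dividing cells and 0.28 in the non-dividing ones. H2afx, a histone that is phosphorylated at broken DNA, stood at 3.07, 2.12 and 0.721, with 5 UMIs in B + A 10 and a log2 ratio of -2.09 (-3.74 to -0.82), beside -0.33 and -0.15. Pdia5, a disulfide isomerase, stood at 2.92, 2.02 and 0.866 (-1.76, -3.24 to -0.59), beside -0.53 and -0.46.

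As groups, goblet genes were past the fold in 3 of 14 genes for B + A 0 beside AOS 0, all higher. For B + A 10 beside B + A 0 they were so in 3 of 11, all lower. Both comparisons hold the same members of B + A 0, so that their opposite directions are not independent. For goblet genes the median log2 ratios were 0.40 and -0.03 in the other dividing cells, and -0.13 and -0.08 in the non-dividing ones. Beside AOS 0, the median log2 ratio of B + A 0 was 0.26 for 14 goblet genes (3 higher and none lower, where 3.01% of all genes were higher), 0.08 for 20 folding and export genes (none past the fold) and -0.13 for 12 mitosis genes (1 lower), against -0.06 for all genes. Of 5 enterocyte genes 4 were higher in B + A 0 (0.82), among them Apoa1, an apolipoprotein, at 4.25, 8.68 and 10.5 UMIs per 10000 in the 3 libraries. Apoa1 had a log2 ratio of 1.03 in the members, 1.26 in the other dividing cells and 0.32 in the non-dividing ones. The enterocyte markers together stood at 8.13, 15.7 and 18.6 UMIs per 10000 in the members. They stood at 9.87, 20.03 and 21.78 in the other dividing cells and at 20.7, 24.43 and 29.73 in the non-dividing ones. The order of the libraries was thus the same in all 3 populations. From B + A 0 to B + A 10, 3 of 11 goblet genes were lower and none higher (-0.32), and 3 of 14 folding and export genes were lower and none higher (-0.32), against -0.01 for all genes, of which 6.23% were lower. From AOS 0 to B + A 10, 2 of 13 goblet genes were higher and 1 was lower (0.07), and 2 of 16 folding and export genes were lower and none higher (-0.13). Over all genes of that comparison the median was -0.11, with 6.27% higher and 12.4% lower, so that the folding and export genes were near that background. No p53 target gene and no crosslink repair gene had 100 UMIs in the members of any pair of libraries, so that these lists could not be compared at this depth.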

How the data were processed

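scRNA-seq (10x Genomics droplets) was done on 1 library per group. According to their methods, the authors aligned the reads to mm10 with Cell Ranger (version 2.2.0 per the submitters' notes, 5000 cells forced per library, while B + A 10 holds 5352), removed cells with fewer than 200 genes and genes found in fewer than 3 cells, and normalized the counts in Seurat. The deposited values are on a natural log scale, ln(1 + x) with x in UMIs per 10000 of the cell, for 13891 genes and 12653 cells, and whole UMIs were recovered from them (100% of 24333763 values above 0 lay within 0.01 of a whole UMI). The libraries held 35258551, 26044381 and 23003083 UMIs. The design had been written for counts or normalized values, and with 1 library per group no count test was run.

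UMIs were summed over cells. Levels have exact Poisson intervals, shares Clopper-Pearson, differences of shares Newcombe and ratios exact binomial intervals, at 95%. They cover counting error only, so precision follows the UMIs and cells behind each value. Doublets were kept, and cells with the highest 5% of Scrublet scores (681 cells, 30 components) were left out as an alternative, as were cells above the 90th percentile of UMIs of the other dividing cells. Thinning was random to 2000 UMIs. Named genes are those of 17 lists and the 10 with the largest and the 10 with the smallest ratio in each comparison. The members and lists were chosen with earlier results of these data known, and 1 alternative (members with no more UMIs than the median other dividing cell) was added after seeing the data. The ratio step was tested on simulated data. Gene coordinates are from GENCODE M21 (GRCm38), and promoter windows are from RefSeq (GRCm38.p6). Python 3.11.15 was used with scipy 1.17.1 for intervals, scanpy 1.11.5 for Scrublet, matplotlib 3.10.9 for plots, and numpy 2.4.6, anndata 0.12.19 and pandas 2.3.3 for tables.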

Additional observations from a re-analysis of the deposited data

How the results depend on the processing

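No paired analysis was possible because each group had 1 library. The choice of the limits mattered most where it left few cells: mitosis genes of 40 or more kept 4 members, all in AOS 0, so the shares of all cells became 0.0974% in AOS 0 and 0 elsewhere (differences of B + A 10 of 0 from B + A 0 and -0.0974 points from AOS 0), the shares of dividing cells in both busulfan libraries became 0 (differences -8.51, 0 and -8.51 points), and 295 and 3074 genes were past the fold beside the other dividing and the non-dividing cells. With these 4 cells the log2 ratio of Defa30 over the other dividing cells turned to -0.17, and over the non-dividing cells that of Sox9 turned to -0.47 and the medians of the enteroendocrine and T lymphocyte genes to 0.37 and 0.34. With Ccl9 and Reg4 of 20 or more (45 members) the share of dividing cells in AOS 0 was 5.42%, and 1072 genes were past the fold beside the non-dividing cells. Thinned to 2000 UMIs, B + A 0 had a share of 1.06% and B + A 10 of 0.430%. Thinned to 1000 UMIs, with the populations kept as chosen at full depth, Atoh1 had a UMI in 26.9% of members, 1.32% of other dividing cells and 18.3% of non-dividing ones.

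In the order members beside other dividing cells, beside non-dividing cells, B + A 0 beside AOS 0, B + A 10 beside B + A 0 and B + A 10 beside AOS 0, the genes past the fold were 1121, 702, 15, 9 and 22 after thinning, 3793, 3311, 474, 297 and 604 with at least 30 UMIs, 6981, 6805, 5905, 6169 and 7062 with no minimum, and 955, 502, 19, 9 and 26 at 2-fold. Thinning and the other minimums change which genes are counted, and 2-fold is a stricter limit on the same genes. In these counts thinning also changed which cells met the rule. What else moved these counts was not tested. The 28 members with no more UMIs than the median other dividing cell gave 23, 8 and 37 genes between the libraries, and turned the ratios of B + A 10 to B + A 0 of Defa17 to -1.21 and of Mptx1 to 0.25. Thinning turned the ratio of B + A 10 to AOS 0 of Mptx1 to -0.86. The cause of these 3 reversals was not tested. In those 28 members Atoh1 (4.05 and 0.37), Agr2 (4.16 and -0.19), Muc2 (3.77 and -0.50), Zg16 (2.34 and -1.89) and Cdk1 (0.25 and 3.14) kept the direction of their log2 ratios over the other dividing and the non-dividing cells. Over those 28 members and the 45 with Ccl9 and Reg4 of 20 or more, called ratios that left the fold or moved by over 1.5 times included Ccl6 over the non-dividing cells (-0.24 in the 28) and, for B + A 0 beside AOS 0, Ifi27l2b (-1.91 in the 28) and Olfm4 (-3.36 in the 45). Leaving out the cells with high Scrublet scores (66 members) or above the 90th percentile of UMIs (62 members), a limit of 500 or none on Defa and a minimum of 500 genes moved no share beyond its interval. Those omissions of cells and the other scalings moved no total of genes past the fold by over 1.5 times. The split by direction did move with median-of-ratios size factors, from 622 higher and 1657 lower to 1007 and 1019 beside the other dividing cells, from 1236 and 395 to 600 and 698 beside the non-dividing ones, and from 40 and 79 to 62 and 55 for B + A 10 beside AOS 0. With these factors Pcna over the other dividing cells (-0.39) and Sox9 and Hes6 over the non-dividing ones (0.44 and 0.41) were within the fold. Depth limits B + A 10, whose 13 members held 69310 UMIs.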
